A study of Mus musculus with 7 samples.

Results

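Small RNAs bound to an Ago2 loop mutant, PGKTP_AAAAA, were compared with those bound to wild-type Ago2 over all 1078 rows of a deposited table of miRNA counts. The table came from 7 libraries of mouse embryonic stem cells, 1 for each of 7 groups, and the comparison used 2 of them. All 7 groups share cells that lack Argonaute proteins of their own and an anti-Flag immunoprecipitation. In the 6 Ago2 groups it pulls down the Flag-tagged Ago2 put back into the cells. Besides wild-type Ago2 and the label PGKTP_AAAAA, the groups were Ago2 K566A, Q548A, R792A_C793A and GKT_GKGT and an empty control. Libraries of the bound RNA were prepared with a NEBNext small RNA kit for Illumina HiSeq sequencing. How the Flag-tagged proteins were introduced, and whether each line was 1 clone, was not given in the sources used here. The label PGKTP_AAAAA names the replacement of the residues P, G, K, T and P by alanine. Each mature miRNA name was counted once, by its highest locus, which gave 950 miRNAs, of which 337 reached a mean of 10 counts per 1000000 (CPM) over the 6 Ago2 libraries and were tested. Of 493 hairpins with a 5p and a 3p arm in the table, 399 had at least 100 counts over those libraries and were tested. There was 1 library a side, so no difference below has a replicate check. Every interval covers counting error only, because the reads carry no molecular identifiers.

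As background, Dicer releases a miRNA as a duplex of a 5p and a 3p strand, one from each side of the hairpin stem. Argonaute keeps a single strand, the guide, and discards the other, the passenger. The MID domain of Argonaute binds the first base of the guide, and a loop there contacts that base. The series, by its title, is about the role of Argonaute itself in the choice of strand. In embryonic stem cells the guide pool is dominated by the miR-290 cluster, whose members are known as regulators of the cell cycle and of pluripotency.

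The mature sequences below carry the comparison by first base, read 5′ to 3′ from RefSeq's table (build GRCm38.p6). Capitals mark the seed, bases 2 to 8, which pairs with target RNAs; the base before it is the first base. The first 6 are those of the 10 largest rises at 100 CPM or more that have a sequence in that table. Of these, 4 begin with C, 1 with G and 1 with U.
miR-674-3p: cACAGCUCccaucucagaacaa
miR-129-5p: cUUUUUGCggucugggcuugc
miR-200b-5p: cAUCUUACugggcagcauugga
miR-296-3p: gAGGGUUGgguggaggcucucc
miR-25-3p: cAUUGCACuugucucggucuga
miR-92b-3p: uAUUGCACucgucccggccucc
The next 10 are the 10 largest falls by the same rule. Of these, 5 begin with A, 3 with U, 1 with G and 1 with C.
miR-667-3p: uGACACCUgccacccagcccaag
miR-666-5p: aGCGGGCAcagcugugagagcc
miR-323-3p: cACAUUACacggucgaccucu
miR-294-5p: aCUCAAAAuggaggcccuaucu
miR-1981-5p: gUAAAGGCugggcuuagacguggc
miR-412-5p: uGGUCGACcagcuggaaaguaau
miR-434-3p: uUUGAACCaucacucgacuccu
miR-501-3p: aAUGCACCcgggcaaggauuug
miR-543-3p: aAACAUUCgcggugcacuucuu
miR-296-5p: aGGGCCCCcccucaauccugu
The last 12 are pairs of arms of 6 hairpins in which one arm begins with C and the other with A.
miR-291a-5p: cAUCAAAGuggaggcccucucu
miR-291a-3p: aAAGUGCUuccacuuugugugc
miR-540-5p: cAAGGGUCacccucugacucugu
miR-540-3p: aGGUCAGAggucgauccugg
miR-199a-5p: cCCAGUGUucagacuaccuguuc
miR-199a-3p: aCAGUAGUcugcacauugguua
miR-193b-5p: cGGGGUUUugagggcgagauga
miR-193b-3p: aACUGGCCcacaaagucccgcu
miR-210-5p: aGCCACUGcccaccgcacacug
miR-210-3p: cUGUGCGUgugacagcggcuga
let-7d-5p: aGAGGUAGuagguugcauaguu
let-7d-3p: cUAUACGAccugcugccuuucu
miR-25-3p and miR-92b-3p share the seed AUUGCAC and differ in the base before it. A sequence was found for 280 of the 337 tested miRNAs, and the other 57 enter no count by base.

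The wild-type library held 94842507 counts and the mutant library 24921544, a 3.81-fold difference in depth. A count of 0, which allows up to 3 counts, allows 0.0316 CPM in wild type and 0.120 CPM in the mutant. No tested miRNA was at 0 in either library. The empty control held 33461 counts, 446-fold fewer than the shallowest Ago2 library. Its leading miRNA was also miR-292-5p, with 65.6% of its counts against 63.7% in wild type and 69.5% in the mutant; the part of this background in the ratios was not tested. The counts do not show the mutation, so the label could not be checked from them. The stem cell identity could: the 14 miRNAs of the miR-290 cluster were counted in both libraries and summed to 777889 CPM in wild type and 800019 CPM in the mutant. Muscle markers summed to 1.23 and 3.05 CPM and the liver marker miR-122 to 0.949 and 1.16 CPM. Fibroblast markers summed to 2069 and 1483 CPM, blood markers to 514 and 366 CPM, and the endothelial marker miR-126 to 171 and 346 CPM. Neural markers summed to 3974 and 3745 CPM, the most of the lists from other cell types. The miR-302 cluster, also a stem cell list, summed to 535 and 442 CPM, below the fibroblast markers. The identity check therefore rests on the miR-290 cluster.

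Most miRNAs took a smaller share of the mutant library than of the wild-type library. The call rule asked that the 95% interval of the ratio of the counts (exact, conditional on their sum) lie wholly above 2 or below 0.5. Total RNA of the cells was not analysed here, so a miRNA's level in the cells and its binding to Ago2 cannot be told apart. By that rule 24 miRNAs were higher in the mutant, 7.12% of those tested, and 113 were lower, 33.5%. The median log2 ratio of mutant to wild-type CPM was -0.55, a 1.46-fold lower level, with quartiles of -1.40 and 0.22 and a range from -4.90 to 2.97. CPM are shares of a library, and a single guide filled most of both. miR-292-5p, an A-first strand of the miR-290 cluster, had 636783 CPM in wild type and 695452 CPM in the mutant. Median-of-ratios scaling, which centres the typical miRNA, moves each log2 ratio up by 0.55, and it called 49 higher (14.5%) and 64 lower (19%). The 24 higher calls and 64 of the lower calls held under each of 4 scalings tried. Against totals, the other scalings raise every log2 ratio by the same constant, between 0.25 and 0.55. Higher calls therefore had to hold and opposite calls could not arise, so this is no check of the calls. Changes of groups are therefore also set against the median over all tested miRNAs.

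**Figure D1:**
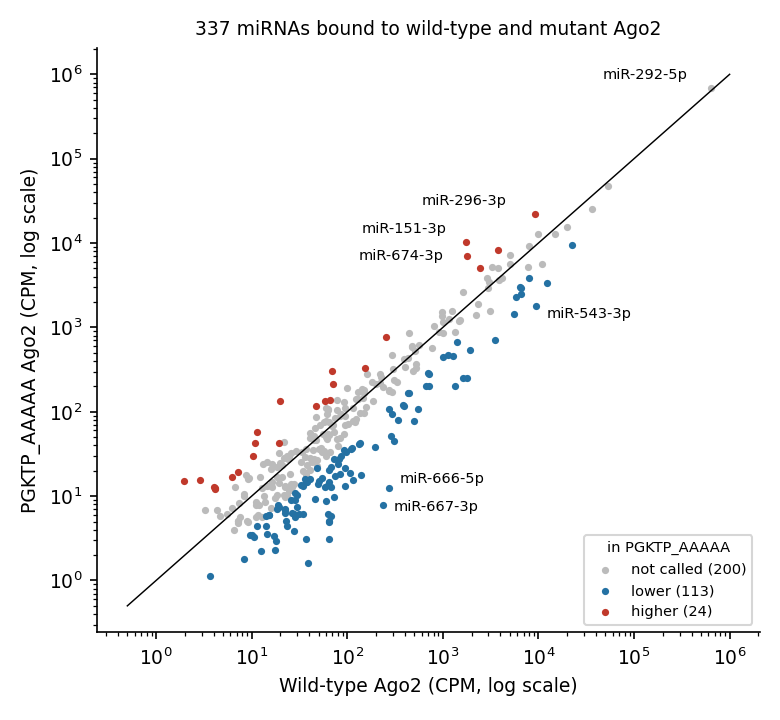
Each point is 1 of 337 tested miRNAs, with its level in the wild-type library on the x axis and in the PGKTP_AAAAA library on the y axis, both in CPM on log scales; the line marks equal levels. More points lie below the line than above it, with 113 called lower (blue) and 24 called higher (red), while miR-292-5p stands far above the rest in both libraries.

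Of the 10 most abundant miRNAs of wild type, 3 fell and 7 passed the rule in neither direction. The 10 most abundant miRNAs of wild type took 82.6% of its counts, and those of the mutant 86.0%; 7 were in both lists. miR-293-3p had 53722 CPM in wild type and 47486 CPM in the mutant, and miR-292-3p had 35894 and 25139 CPM. miR-294-3p, of a seed family known to promote the stem cell cycle, had 19962 and 15297 CPM. None of these 3 passed the 2-fold rule. Of the same 10, miR-293-5p fell from 12283 to 3371 CPM and from rank 7 to 25, while miR-543-3p, a Dlk1-Dio3 miRNA, fell from 9414 to 1795 CPM and from rank 10 to 33. miR-433-3p, also of Dlk1-Dio3, fell from 22567 to 9455 CPM, a log2 ratio of -1.26 that lost its call under the other 3 scalings. miR-151-3p moved the other way, from rank 38 to 8.

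At a mean of 100 CPM or more over both libraries, fewer than the 337 miRNAs were tested. Counts of calls at that level therefore do not show whether calls were rarer there. Of the miRNAs tested at that level, 10 were higher in the mutant and 36 lower. The largest of these rises was miR-151-3p (chr15:73085250-73085270, mm9), with 1734 CPM in wild type and 10378 CPM in the mutant, a log2 ratio of 2.58 (95% interval 2.57 to 2.59). In the other mutants it had 2318 CPM (K566A), 526 CPM (Q548A), 4286 CPM (R792A_C793A) and 6124 CPM (GKT_GKGT), so PGKTP_AAAAA was the highest of the 6 Ago2 libraries. miR-674-3p (chr2:117010922-117010943) rose from 1793 to 7071 CPM, a log2 ratio of 1.98 (1.97 to 1.99), again the highest of the 6 libraries. miR-195-3p, from a miR-15/16 family hairpin, rose from 68.6 to 306 CPM (2.16). It was higher still in K566A, at 722 CPM, and in GKT_GKGT, at 576 CPM. miR-129-5p, known from neurons, rose from 257 to 780 CPM (1.60), and miR-200b-5p, from the hairpin of an epithelial miRNA, from 71.4 to 214.5 CPM (1.59). miR-296-3p rose from 9109 to 22266 CPM (1.29) and was the G-first miRNA among the rises. The remaining rises were smaller, with log2 ratios from 1.03 to 1.11. They were miR-92b-3p (3767 to 8159 CPM), miR-126-3p (155 to 333 CPM), miR-21-5p (65.9 to 139 CPM) and miR-25-3p (2469 to 5032 CPM).

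The 2 largest falls of this set were both from the Dlk1-Dio3 cluster. miR-667-3p (chr12:110958271-110958293) had 237 CPM in wild type and 7.94 CPM in the mutant, 29.8-fold lower (log2 ratio -4.90, 95% interval -5.11 to -4.69). It had 10.9 CPM in K566A and 74.2 to 155 CPM in the other 3 mutants, so 2 of the 6 libraries were low. miR-666-5p (chr12:110955313-110955334) had 273 and 12.6 CPM, 21.6-fold lower, and was lower still in K566A, at 8.25 CPM. miR-323-3p fell from 1767 to 251 CPM (-2.82), although it begins with C. miR-294-5p, the passenger of the abundant miR-294-3p, fell from 309 to 45.1 CPM (-2.78). miR-1981-5p, a G-first miRNA listed among those processed outside the standard pathway, fell from 1332 to 203 CPM (-2.71). At 203 CPM it was the lowest of the 6 Ago2 libraries, the others lying between 629 and 2330 CPM. miR-412-5p (501 to 77.2 CPM), miR-434-3p (1621 to 254 CPM) and miR-543-3p (9414 to 1795 CPM), all of Dlk1-Dio3, fell too. So did miR-501-3p (285 to 51.4 CPM) and miR-296-5p (550 to 108 CPM). In the empty control the named rises and falls had between 3 counts, for miR-195-3p and miR-666-5p, and 271 counts, for miR-543-3p.

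The first base of the miRNA went with the size of its ratio. C-first miRNAs stood highest, then U-first, then A-first and G-first. The median log2 ratio was 0.20 for 54 C-first miRNAs, -0.38 for U-first miRNAs (72 on the 5p and 54 on the 3p arm), -1.36 for 73 A-first and -1.65 for 27 G-first miRNAs. Relative to all tested miRNAs these medians were 0.75 and 0.17 above, and -0.82 and -1.10, that is below. Of C-first miRNAs 10 were called higher (18.5%, against 7.12% of all) and 8 lower (14.8%, against 33.5%). Of G-first miRNAs 1 was higher and 19 lower (70.4%), and of A-first miRNAs 3 were higher and 41 lower (56.2%). U-first miRNAs had 3 higher and 34 lower (27%). Under median-of-ratios scaling the split was 22 higher and 2 lower for C, 10 and 23 for U, 6 and 24 for A, and 1 and 12 for G. The side of 0 on which the U-first median lay depended on the scaling (-0.38 with totals, 0.17 with median-of-ratios). A scaling shifts every log2 ratio alike, so it cannot change the order of the bases. The 57 miRNAs without a sequence had a median of -0.44. Parts of the order of the bases were also seen in other mutants, set against the same wild-type library. Relative to all, K566A had G-first miRNAs at -1.62, A-first at -0.57, U-first at 0.50 and C-first at 0.08. GKT_GKGT had C-first at 1.05 but G-first at 0.41. R792A_C793A had G-first at -0.54, and Q548A had C-first at -0.43.

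**Figure D2:**
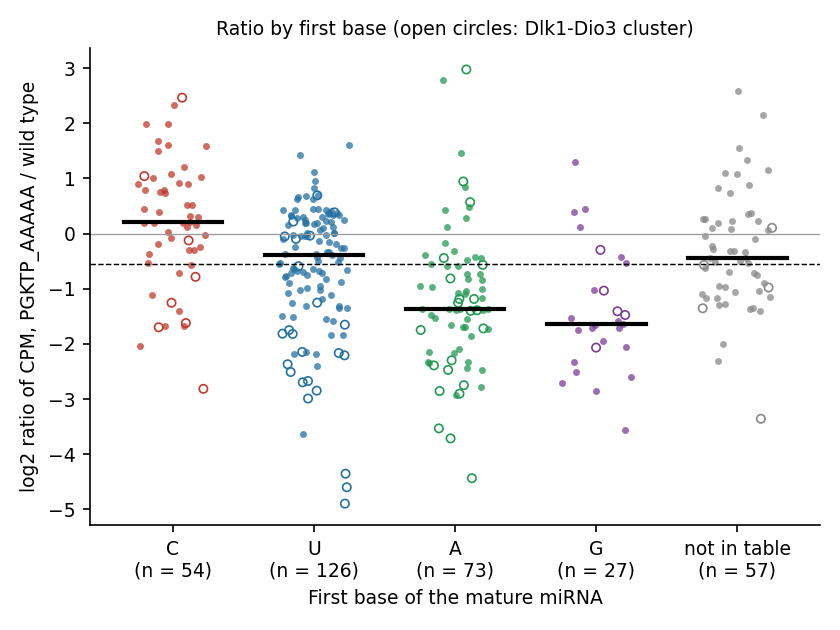
Log2 ratios of CPM (PGKTP_AAAAA over wild type, y axis) of the 337 tested miRNAs are grouped by first base (x axis). Bars are group medians, the dashed line is the median of all at -0.55, and open circles are Dlk1-Dio3 miRNAs; the C group sits highest, at a median of 0.20, and the G group lowest, at -1.65, with wide overlap.

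The order of the bases was also seen in several subsets. Among 5p miRNAs the medians were 0.19 for C, -0.30 for U, -1.39 for A and -1.75 for G. Among 3p miRNAs they were 0.31, -0.52, -1.19 and -0.78, so A and G changed places there, with 10 G-first miRNAs. Outside the Dlk1-Dio3 cluster the medians were 0.32 for 46 C-first, -0.26 for 102 U-first, -1.09 for 51 A-first and -1.68 for 22 G-first miRNAs. At or above a mean of 100 CPM they were 0.19 (n = 23), -0.03 (n = 46), -1.09 (n = 25) and -1.41 (n = 9). When the miRNAs were split into tertiles of GC content the medians of the tertiles were -0.58, -0.56 and -0.64. C stood above U, U above A and A above G in each of them. Across the 280 miRNAs with a sequence, Spearman's rho of the log2 ratio was -0.018 with GC content, 0.051 with length and -0.051 with the wild-type level. These are descriptions across miRNAs of 2 libraries, and miRNAs are not independent replicates.

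Position 1 separated the bases more than each of the positions 2 to 10. The gap between the highest and the lowest median of the 4 bases was 1.85 log2 units at position 1. It was 0.67 at position 2, between 0.13 and 0.51 at positions 3 to 8, 0.73 at position 9 and 0.15 at position 10.

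**Figure D3:**
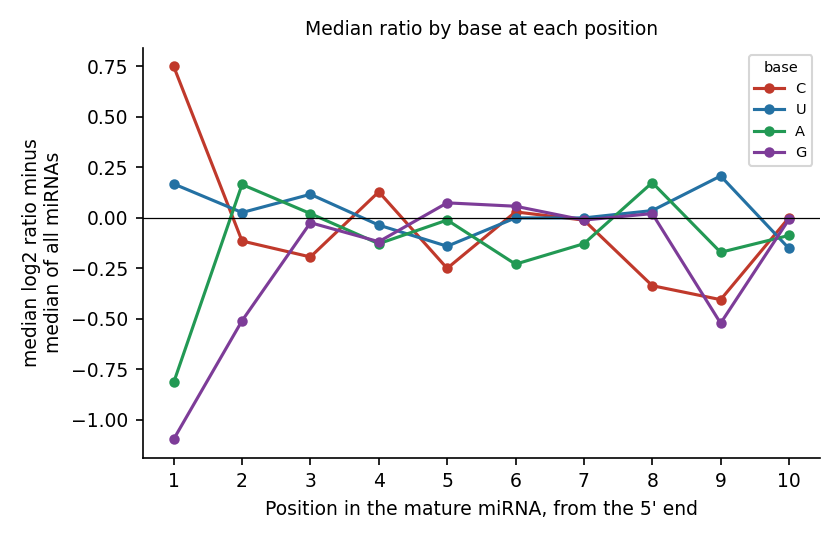
For each of positions 1 to 10 of the mature miRNA (x axis), points give the median log2 ratio of miRNAs with that base minus the median of all (y axis). The bases lie farthest apart at position 1, by 1.85 log2 units, and the next largest gap is 0.73, at position 9.

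Individual miRNAs of each base show both the trend and its exceptions. Among abundant G-first miRNAs, miR-298-5p fell from 5572 to 1452 CPM (-1.94), miR-370-3p from 6551 to 2467 CPM (-1.41) and miR-409-3p from 7998 to 3903 CPM (-1.04). Less abundant C-first arms that rose were miR-16-1-3p (11.4 to 57.3 CPM, 2.33), miR-150-3p (10.7 to 42.7 CPM, 1.99), miR-193b-5p (4.07 to 13.0 CPM, 1.67) and miR-199a-5p (10.4 to 29.6 CPM). Against the trend, the A-first miR-1934-3p rose from 19.6 to 134 CPM (2.77) and the A-first miR-92a-2-5p from 7.12 to 19.5 CPM (1.45). The largest log2 ratio of all, 2.97 for miR-3544-3p, belongs to a locus that overlaps miR-337-5p (C-first, also called higher). Whether counting used strand was not given in the sources used here. These 2 cannot be told apart.

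Families that share a seed but differ in the first base keep bases 2 to 8 constant. The mean log2 ratio of C-first members lay above that of U-first members in 3 of 3 such seeds, and that of U-first above that of A-first members in 3 of 3. The 1 seed with an A-first and a G-first member, AAGUUCU, ran against the order of the bases, with -2.33 for the A-first miR-148a-5p and -1.70 for the G-first miR-148b-5p. With the seed AUUGCAC, the C-first miR-25-3p had a log2 ratio of 1.03 and the A-first miR-363-3p -0.32. The U-first miR-32-5p and miR-92a-3p lay between them at 0.45 and 0.33, while the U-first miR-92b-3p reached 1.11. With the seed AGCAGCA, shared by the miR-15/16 family of cell cycle repressors, the C-first miR-497-5p had 22.02 CPM in wild type and 44.1 CPM in the mutant. The U-first miR-15b-5p had 29.5 and 10.4 CPM, and miR-16-5p 36.3 and 29.0 CPM. With the seed AAAGUGC of miR-17 and its relatives the difference between C and U was 0.11 and the members overlapped, from -0.53 for the C-first miR-93-5p to 0.38 for the C-first miR-20b-5p. In the let-7 family (seed GAGGUAG) the A-first let-7d-5p fell from 92.1 to 35.2 CPM (-1.39), yet so did the U-first let-7g-5p, from 85.0 to 29.9 CPM (-1.51). With the seed AAGUGCU of the stem cell miRNAs, the A-first miR-291a-3p had -1.09, miR-295-3p -1.01 and miR-294-3p -0.38. The U-first miR-302d-3p had -0.49 and miR-302b-3p -0.26.

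The 2 arms of a hairpin come from the same precursor, so the library size cancels from the change of their ratio. Of 399 tested hairpins, 43 moved toward the 5p arm (10.8%) and 56 toward the 3p arm (14%), with the exact 95% interval of the odds ratio wholly past 2-fold. The median change in log2(5p/3p) was -0.04, so neither side gained as a whole. Of the hairpins with 2 different first bases 63 of 230 were called, and of those with the same base on both arms 14 of 73, against 24.8% of all. A pyrimidine-first (C or U) arm was paired with a purine-first (A or G) arm in 33 C/A, 17 C/G, 62 U/A and 36 U/G hairpins. The pyrimidine arm gained in 91 of these, and the median change over them was 0.64. That set includes hairpins with an arm of 3 counts or fewer in each library. Without those, the median by pair ran from 0.06 (U over G) to 1.77 (C over A), so the gain was not general to pyrimidines.

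Hairpins with a C-first and an A-first arm moved toward the C arm. There were 33 such hairpins, the C arm gained in 26, and the median change in log2(C arm/A arm) was 1.58. By the 2-fold rule 14 moved toward C and 0 toward A. Where 3 counts or fewer were seen for an arm in each library, the change rests on the pseudocount of 0.5. Without those hairpins 26 were left, the C arm gained in 22 and the median was 1.77. Among the 23 of these with strands from 1 locus the C arm gained in 19 (median 1.77). Those left out were miR-129-2, miR-199a and miR-138-1, whose strands can come from 2 loci. Outside the C/A hairpins, the same holds for miR-16-1 and miR-344, which are named below. The gain was seen on both sides of the stem, in 12 of 12 hairpins with C on the 5p arm (median 2.73) and in 10 of 14 with C on the 3p arm (1.07). For the other pairs of bases, with low arms also left out, the median change was 0.48 for C over U (33 of 50 hairpins gained) and 1.04 for C over G (10 of 12). It was 0.38 for U over A (29 of 52), 0.06 for U over G (16 of 32) and 0.31 for A over G (7 of 12). Called hairpins numbered 10 toward C and 3 toward U, 5 toward C and 0 toward G, and 9 toward U and 4 toward A. They numbered 8 toward U and 5 toward G, and 1 toward A and 4 toward G, so the A over G calls ran against the sign of their median. Among those hairpins with strands from 1 locus, the median was 0.84 for C over U (28 of 36 gained) and 1.04 for C over G (10 of 12). It was 0.38 for U over A (23 of 40), 0.54 for U over G (15 of 25) and 0.24 for A over G (6 of 11).

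The miR-291a hairpin (chr7:3218933-3218990) shows this at the greatest depth. Wild type had 478449 counts of the C-first miR-291a-5p and 613520 of the A-first miR-291a-3p, and the mutant 179317 and 75831. The C arm thus went from 43.8% of the hairpin (Wilson 95% interval 43.7 to 43.9) to 70.3% (70.1 to 70.5), and the major arm changed. In the other Ago2 libraries it was 16.2% in K566A, 40.0% in Q548A, 23.4% in R792A_C793A and 93.5% in GKT_GKGT. For this hairpin both loop mutants lay above wild type and the other 3 below it. Other C/A hairpins did not separate the libraries in that way: K566A had 86.4% C arm for miR-193b and 71.4% for miR-322, and R792A_C793A had 77.5% for let-7d and 27.5% for miR-540. miR-540 (chr12:110824295-110824351) had 402 and 5654 counts of its C and A arms in wild type and 242 and 221 in the mutant, which moved the C arm from 6.64% to 52.3%. miR-199a, best known from mesenchymal cells, went from 56.5% to 94.97% C arm, and miR-193b from 46.5% to 89.2%. miR-322, of the miR-15/16 family, went from 26.3% to 71.6%. With C on the 3p arm, miR-210, the miRNA induced by hypoxia, went from 89.2% to 99.1% and let-7d from 57.4% to 80.1%. Hairpins already held by the C arm moved further in the same direction, such as miR-17 from 95.6% to 99.2% and miR-25 from 96.4% to 98.9%. The 4 hairpins of the 26 that lost C arm share were miR-323 (94.4% to 92.96%), miR-770 (98.7% to 97.5%), miR-181d (1.08% to 0.48%) and miR-708 (67.7% to 66.8%), none of which passed the 2-fold rule. The gain was shared by the other loop mutant, GKT_GKGT. It had 53.3% C arm for miR-540, 91.8% for miR-199a, 93.8% for miR-193b, 67.1% for miR-322 and 91.9% for let-7d. All of the 26 but miR-25 (92.4%) lay above wild type in GKT_GKGT. K566A, Q548A and R792A_C793A each lay above wild type for some of the 26 and below it for others, so a gain was not particular to the loop mutants.

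**Figure D4:**
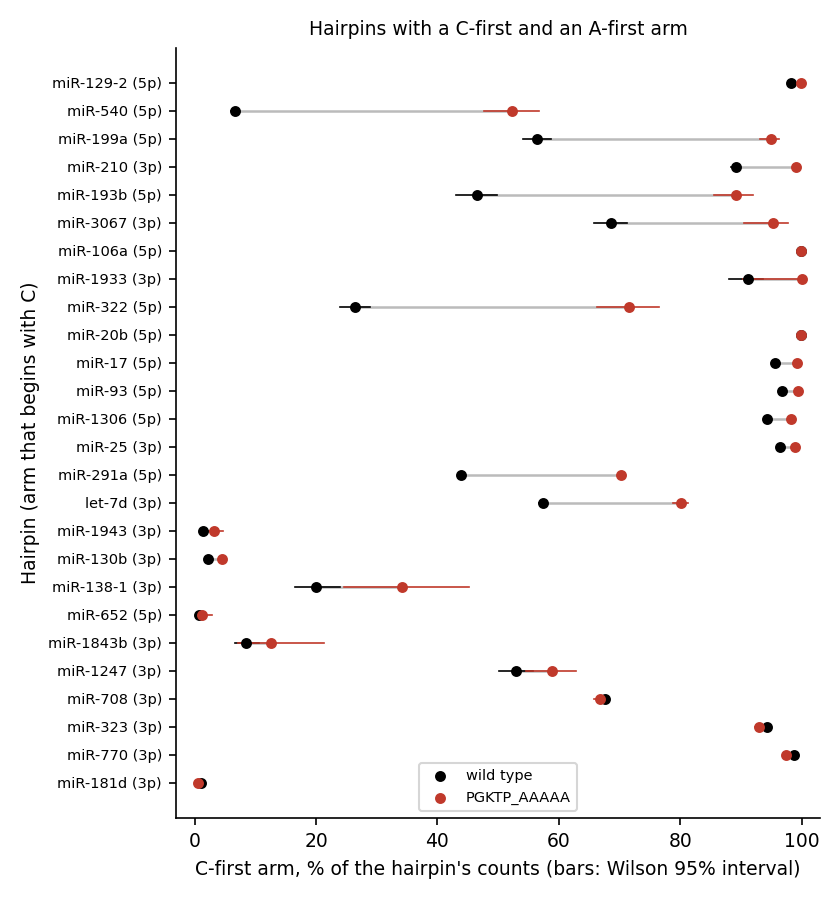
Share of the C-first arm in each of 26 hairpins with a C-first and an A-first arm (y axis, arm in brackets), as a percentage of the hairpin's counts (x axis), in wild type (black) and PGKTP_AAAAA (red), with Wilson 95% intervals. The mutant lies to the right of wild type in 22 of the 26, and miR-540, miR-322, miR-193b and miR-291a cross 50%.

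The largest changes of arm use included hairpins of other base pairs. Toward 3p, miR-674 (G-first 5p, C-first 3p) went from 1.46% to 0.0901% 5p arm, a log2 odds ratio of -4.04 (95% interval -4.28 to -3.81). miR-151 went from 1.95% to 0.125% (-3.98), and miR-877 from 20.3% to 1.65% (-3.92). miR-877 is a mirtron, a hairpin made by splicing, and lies in an intron of Abcf1; its 5p arm begins with G and its 3p arm with U. miR-211, in an intron of the melanocyte gene Trpm1, went from 97.6% to 73.2% 5p arm (-3.88), a shift from its U-first toward its G-first arm. miR-345 (G-first 5p, C-first 3p) went from 4.16% to 0.325% 5p arm, on 2 mutant counts. miR-145, a smooth muscle miRNA, went from 76.6% to 11.7% 5p arm on 1679 and 342 counts. The 5p arm of miR-665 had 37 counts in wild type and 0 in the mutant, and its share of the arms was at least 4.81-fold lower in odds with the 0 taken as 3 counts.

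Toward 5p, miR-455 (U-first 5p, G-first 3p, in an intron of Col27a1) went from 57.6% to 96.3% 5p arm, a log2 odds ratio of 4.26 (3.40 to 5.25). miR-129-2 went from 98.2% to 99.9% (3.96), with its 3p arm at 448 and 23 counts. miR-667 (C-first 5p, U-first 3p) went from 22.3% to 73.5% (3.27), since its 3p arm fell from 22441 to 198 counts and its 5p arm from 6446 to 550. miR-344 moved from 0.623% to 6.55% 5p arm, on 26 mutant counts of that arm. miR-20a (40 and 1 counts of its 3p arm) and miR-205 (66 and 0 counts) are near the limit of the depth. For miR-205 the 3p arm was at least 5.71-fold lower in odds with the 0 taken as 3 counts.

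The major arm changed in 20 hairpins, 11 from 5p to 3p and 9 from 3p to 5p. miR-423 (chr11:76891588-76891646, in an intron of Nsrp1) went from 36.6% to 63.5% of its U-first 5p arm on 980689 and 198523 counts. miR-16-1, in the Dleu2 transcript, went from 76.1% 5p arm to 33.6%, with the C-first 3p arm as the new major arm. miR-15a in the same transcript went from 54.9% to 33.5%, and miR-30a from 57.3% to 38.6%; in both the 3p arm begins with C. miR-18a went from 48.9% to 79.1% of its U-first arm. miR-1934 changed against the bases, from 88.5% of its U-first arm to 42.1%. miR-485 (53.8% to 29.0% 5p arm) and miR-1188 (70.8% to 31.7%), both of Dlk1-Dio3, moved to 3p. The other switches included miR-365-2 (45.1% to 74.5% 5p arm) and miR-1231 (41.5% to 59.1%). The 3p name of miR-365-2, miR-365-3p, is shared with the miR-365-1 hairpin, so its counts can come from more than 1 locus. The odds of miR-15a, miR-30a and miR-1231 did not pass the 2-fold rule. Those of miR-136 and miR-3071 are uncertain because the loci overlap each other.

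The imprinted Dlk1-Dio3 cluster on chromosome 12, a large miRNA cluster expressed from the maternal allele, was lower in the mutant as a group. Its miRNAs summed to 8.72% of wild-type counts and 5.13% of mutant counts, the lowest of the 6 Ago2 libraries. In K566A they summed to 124993 CPM, in Q548A to 91468, in R792A_C793A to 84431, in GKT_GKGT to 68916 and in the empty control to 79555 CPM, against 87175 CPM in wild type and 51280 CPM in PGKTP_AAAAA. Of 111 listed miRNAs 64 were tested, 42 were lower (65.6%, against 33.5% of all) and 2 higher. The 2 higher ones are the overlapping miR-337-5p and miR-3544-3p. The median log2 ratio was -1.55, against -0.55 over all tested and -0.38 for the 273 miRNAs outside the cluster. Under median-of-ratios scaling 30 were lower and 5 higher.

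Within the cluster the bases stood in another order, with U-first members lowest. These had a median of -1.98 and 17 of 24 were lower, A-first members -1.56, G-first members -1.41 and the 8 C-first members -1.02. The group from miR-379 onward, at the Mirg end, had a median of -1.75 with 30 of 41 lower and 0 higher; the group before it had -1.19 with 12 of 23 lower. Of 18 cluster hairpins with both arms tested, 7 had both arms lower, 9 had 1 lower and 2 had none. With 65.6% of the tested cluster miRNAs lower, pairs of lower arms can arise without a link between the arms. Such a link was not tested. Of 65 hairpins elsewhere, 3 had both lower, 27 had 1 and 35 had none. Beyond those named above, miR-3072-3p fell from 64.0 to 3.13 CPM and miR-1197-3p from 38.9 to 1.61 CPM. Members that did not pass the rule include miR-127-3p, the most abundant U-first member, with 9774 CPM in wild type and 12762 CPM in the mutant (0.38). miR-300-3p had 1639 and 2648 CPM (0.69), and miR-381-3p and miR-134-5p had log2 ratios of -0.10 and -0.05.

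**Figure D5:**
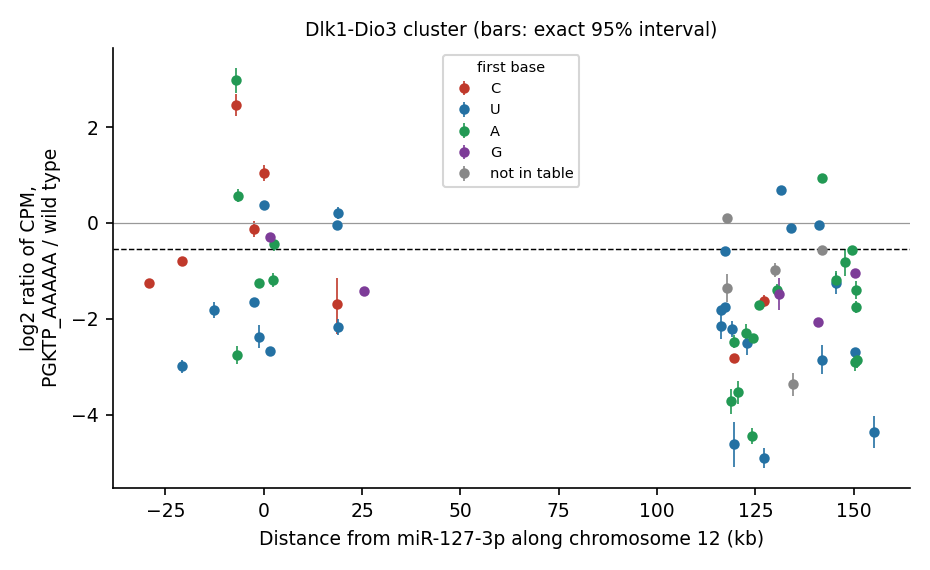
Log2 ratio of CPM (PGKTP_AAAAA over wild type, y axis) of the 64 tested Dlk1-Dio3 miRNAs against their distance from miR-127-3p in kb (x axis), with exact 95% intervals; colours give the first base, the dashed line the median of all tested miRNAs at -0.55. Most points lie below the dashed line on both sides of the gap, and the right-hand group has a median of -1.75.

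The other families and clusters differed in where their median stood. Their counts of calls are to be read against the 33.5% lower and 7.12% higher of all tested miRNAs, and in lists of this size several lie near those shares. The miR-290 cluster, 13 tested members, had a median of -0.51, or 0.03 relative to all, with 5 lower and 0 higher; its falls were miR-290-5p, miR-291a-3p, miR-293-5p, miR-294-5p and miR-295-5p. The C-first miR-291a-5p had 5045 and 7195 CPM (0.51). The growth-promoting miR-17-92 cluster and its paralogs, 22 tested, had a median of 0.04, or 0.59 relative to all, with 2 higher and 4 lower. Their falls were the arms miR-17-3p, miR-18a-3p, miR-18b-3p and miR-93-3p, of which 3 begin with A, while miR-17-5p stood at 516 and 525 CPM. The miR-15/16 family had 6 tested and a median of 1.42 relative to all, with miR-195-3p and miR-16-1-3p higher and miR-15b-5p lower. The miR-30 family had 10 tested and a median of 0.95 relative to all, with miR-30e-3p (C-first, 58.5 to 134 CPM) higher. In the epithelial miR-200 family, 6 tested, miR-200b-5p rose and miR-429-3p fell from 67.1 to 12.7 CPM.

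Lists with low medians were the noncanonical miRNAs (6 tested, 4 lower, -1.14 relative to all), miR-148 with miR-152 (6 tested, 4 lower, -0.96), miR-23/24/27 (8 tested, 4 lower, -0.83) and miR-130 with miR-301 (5 tested, 3 lower, -0.82). Among them were miR-24-3p (1936 to 542 CPM), whose locus overlaps another, miR-320-3p (1136 to 468 CPM) and miR-148a-5p (194 to 38.7 CPM). The Sfmbt2 cluster, 14 tested, had 3 lower and stood 0.06 above all. let-7 with miR-98 (9 tested, 2 lower), the miR-183 cluster with miR-96 (5 tested, 1 lower) and miR-302 (3 tested, 0 called) stood within 0.29 of all. Of miR-181 (3 tested), miR-34 (2 tested), miR-99/100 (2 tested) and miR-125 (3 tested, 1 lower), no member was higher. Among 9 fibroblast markers 3 were higher, of which miR-199a-5p begins with C, and 1 was lower. Of 3 blood markers miR-150-3p was higher, and of the 2 arms of the endothelial miR-126 the 3p arm was higher.

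GKT_GKGT, the other loop mutant, was set directly against PGKTP_AAAAA, since their comparisons with wild type share the wild-type library. The median log2 ratio of PGKTP_AAAAA over GKT_GKGT was -0.32. Relative to it, G-first miRNAs stood at -1.18 and C-first at -0.69, so both were lower in PGKTP_AAAAA, while U-first stood at 0.14 and A-first at -0.12. Among G-first miRNAs, miR-298-5p had 1452 CPM in PGKTP_AAAAA and 4901 CPM in GKT_GKGT (-1.76, 95% interval -1.77 to -1.74), and miR-1981-5p had 203 and 629 CPM (-1.63). The G-first miR-296-3p lay the other way, at 22266 and 12752 CPM (0.80). Among C-first miRNAs, miR-200b-5p had 214.5 and 950 CPM (-2.15), miR-291a-5p 7195 and 14687 CPM (-1.03) and miR-323-3p 251 and 2132 CPM (-3.09), while miR-674-3p had 7071 and 4170 CPM (0.76). The A-first miR-291a-3p was higher in PGKTP_AAAAA, at 3043 against 1024 CPM (1.57).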

How the data were processed

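The authors deposited raw counts, not normalized, per mature miRNA locus, with mm9 positions. The submitters' processing notes name CASAVA 1.8.2 and TopHat2 2.0.9. The counting program, the miRNA annotation, the use of strand and the handling of multiply matching reads were not given in the sources used here.

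From these counts, 959 mature names were each counted once by the highest locus. Another 9 names with counts equal to another's within 1% or 3 counts (sum at least 200) were merged, and 950 miRNAs were left. CPM used the total as library size. Ratios carry exact conditional 95% intervals, odds ratios exact conditional ones (Woolf's where all 4 counts reached 500), shares Wilson ones. A hairpin's arms lay within 150 nt. Scaling alternatives were median-of-ratios, TMM (edgeR 4.0.16 in R 4.3.3, used for these factors alone) and the total without miR-292-5p. Computation used Python 3.11.15 and SciPy 1.17.1, and was tested on simulated data. Named miRNAs were, by rule, the 10 largest called rises and falls at a mean of 100 CPM or more, the 10 most abundant in wild type, the 8 largest called arm changes each way with at least 1000 counts, C/A hairpins, hairpins whose major arm changed, and up to 4 abundant members and the extremes of each list. Others were named after their values were seen, among them seed families, exceptions by first base and the members set against GKT_GKGT. The members, lists and tests were chosen with earlier results of these data known. Host genes were taken by name from GENCODE M21. No table column belonged to another series (0 left out). No p-value is given, since each group is 1 library.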

Additional observations from a re-analysis of the deposited data

How the results depend on the processing

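No paired analysis was possible because each group is 1 library. Of 337 tested miRNAs, higher and lower calls numbered 24 and 113 with totals, 49 and 64 with median-of-ratios, and 46 and 71 with TMM. With no filter on low counts they numbered 38 and 198, of 797 tested. At a mean of at least 100 CPM they numbered 10 and 36, where fewer miRNAs are tested than the 337. With at least 1000 counts in each library, 22 hairpins were called toward 5p and 35 toward 3p, of fewer hairpins tested. Under both of these stricter filters the number tested falls too, so the smaller counts do not show that calls became rarer. Scaling moved the median log2 ratios by construction. With median-of-ratios they were 0.75 for C-first, 0.17 for U-first (from -0.38, so its sign turned), -0.82 for A-first and -1.10 for G-first miRNAs, and with TMM 0.67, 0.091 (turned as well) and -0.89 for C, U and A. At a mean of at least 100 CPM the median of the miR-290 cluster relative to all went from 0.03 to -0.23 and that of the Sfmbt2 cluster from 0.06 to -0.0079; the cause was not tested. miR-433-3p lost its call at -0.71 (median-of-ratios), at -0.78 (TMM) and with the total without miR-292-5p, while 28 of 29 named miRNAs kept theirs under these 3. With 1 library a side, differences between cultures and between libraries cannot be told apart from the genotype. From counting alone, the 95% interval reached a median of 0.11 log2 units to either side among tested miRNAs, and at most 0.58.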
